A study of Mus musculus with 20 samples.

Results

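miR-101a-3p and miR-101b-3p are the mature microRNAs (miRNAs) of a pair of mouse hairpins whose sequences are nearly alike. They are 2 of the 1545 rows of a small RNA sequencing table of mouse hearts. Both were chosen by their own measured levels across the 20 hearts, so these levels, their differences and their ratio are described here without a test. The hearts came from C57BL/6J mice in 4 groups. MI+CIH hearts (n = 7) had both a myocardial infarction (MI) and CIH, MI hearts (n = 4) had the infarction alone, CIH hearts (n = 4) had CIH alone, and sham hearts (n = 5) had neither. CIH is not spelled out in the labels. It is taken to mean chronic intermittent hypoxia, repeated falls of inhaled oxygen that serve as a model of sleep apnoea. The time after surgery, the length of the CIH exposure, the age and sex of the mice and the part of the heart relative to the infarct are not given in the sources used here. The labels number the hearts of a group and do not state how many animals or operations they represent, so a p-value below measures the spread between these libraries.

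A miRNA guides the Argonaute protein to messenger RNAs, mostly through its seed, bases 2 to 8 counted from the 5′ end, and the matched messenger RNA is repressed. The miR-101 family is best known for repressing Ezh2, the methyltransferase of Polycomb repressive complex 2, and Fos, a subunit of the transcription factor AP-1. In rat hearts after coronary ligation, miR-101a was described as limiting fibroblast proliferation and scar formation.

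The mature sequences are shown because the likeness of the members, and the stretches that other miRNAs share with them, are a matter of a few bases. The seed is in capitals, and the sequences and positions are those of RefSeq on GRCm38.p6.
miR-101a-3p: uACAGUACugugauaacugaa
miR-101b-3p: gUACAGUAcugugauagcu
miR-101c: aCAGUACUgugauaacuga
miR-144-3p: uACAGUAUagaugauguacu
miR-542-3p: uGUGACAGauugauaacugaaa

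miR-101a-3p lies at chr4:101346957-101346977 on the minus strand and has 21 bases. miR-101b-3p lies at chr19:29135338-29135356 on the plus strand and has 19. The annotated miR-101b-3p starts 1 base earlier, so the 2 seeds are offset by 1 base, and of the 18 bases that then align 17 were identical. The substitution was A16G, counted from base 1 of miR-101a-3p. miR-101c (chr9:3038680-3038698, minus strand) is contained whole in miR-101a-3p as its bases 2 to 20. miR-144-3p (chr11:78073047-78073066, plus strand), a miRNA of red blood cell precursors, has the same bases 2 to 7 as miR-101a-3p, and of 1679 mature mouse sequences in RefSeq no other had them. The seed of miR-101a-3p, ACAGUAC, occurred at any place in 4 of the 1679, namely miR-101a-3p, miR-101b-3p, miR-101c and miR-503-5p. miR-542-3p (chrX:53049415-53049436, minus strand) has another seed and is shown for its 3′ part, since its bases 11 to 21 are the same as bases 11 to 21 of miR-101a-3p.

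The hairpins are shown to place the mature 3p arm, in capitals, within each precursor.
Mir101a: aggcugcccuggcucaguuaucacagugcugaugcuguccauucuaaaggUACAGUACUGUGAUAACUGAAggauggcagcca
Mir101b: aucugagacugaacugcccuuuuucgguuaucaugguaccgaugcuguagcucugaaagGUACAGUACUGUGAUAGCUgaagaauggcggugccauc
In the GENCODE M21 annotation of GRCm38, the Mir101a hairpin (chr4:101346945-101347027, minus strand) lies in an exon of the long noncoding RNA gene E130102H24Rik, on the same strand. The Mir101b hairpin (chr19:29135279-29135375, plus strand) lies within the protein-coding gene Rcl1, on the same strand, and overlaps none of its annotated exons.

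The 20 libraries held 1991323 to 18138415 miRNA reads each. Clustering the libraries on all tested miRNAs other than the miR-101 rows gave 3 sets that the labels do not name. Every one of the 5 sham and 4 CIH hearts fell in set A (n = 11), together with MI+CIH 1 and MI 2. MI+CIH 2, 3, 4 and 5 formed set B (n = 6) along with MI 1 and 3, and MI+CIH 6 and 7 formed set C (n = 3) along with MI 4. Pearson's r between libraries across miRNAs was 0.908 to 0.994 within sets and 0.711 to 0.933 between them. All 9 hearts outside set A were infarcted, so for them the set and the infarction cannot be told apart. Within set A, the fibroblast miRNA sum (4 of 4 markers detected in every library) was 1753 RPM in MI+CIH 1 and 378 RPM in MI 2, against 1905 RPM in sham 1 and 398 to 433 RPM in the other sham hearts. That marker goes against the labels of MI 2 and sham 1, and values are also given without them.

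miR-101a-3p was an abundant miRNA of the sham and CIH hearts and was several fold lower in most of the infarcted ones. Levels are in RPM, reads of the miRNA per 1000000 miRNA reads of the library. In the MI+CIH hearts 1 to 7 it had 13192, 999, 385, 284, 1081, 1495 and 2131 RPM. In the MI hearts 1 to 4 it had 1434, 7117, 831 and 1425 RPM, in the CIH hearts 1 to 4 it had 8474, 8902, 2100 and 9642 RPM, and in the sham hearts 1 to 5 it had 14451, 7791, 12384, 6954 and 9654 RPM. The 9 infarcted hearts of sets B and C lay between 284 and 2131 RPM, below every sham heart and below every CIH heart but CIH 3. Of the 360 tested miRNAs, 80 (22.2%) were higher in every heart of sets B and C than in every heart of set A. Only 1 (0.278%) was lower in this way, and it was neither miR-101a-3p nor miR-101b-3p. A separation along the library sets is thus not particular to miR-101. The 2 infarcted hearts of set A, MI+CIH 1 and MI 2, lay within the range of the sham hearts.

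Averaged by group, miR-101a-3p stood at 2795 ± 4628 RPM in MI+CIH (SD, n = 7), 2702 ± 2957 RPM in MI (n = 4), 7279 ± 3486 RPM in CIH (n = 4) and 10247 ± 3141 RPM in sham (n = 5). The order from high to low was sham, CIH, MI+CIH and MI. The neighbours sham and CIH overlapped, and the MI+CIH and MI means differed by far less than the spread of either. A single heart set much of each infarcted mean. Without MI+CIH 1 the MI+CIH mean was 1062 ± 693 RPM (n = 6), and without MI 2 the MI mean was 1230 ± 345 RPM (n = 3). With both left out, MI+CIH thus stood below MI, so the order of these groups rests on those hearts. Without CIH 3 the CIH mean was 9006 ± 591 RPM (n = 3), and without sham 1 the sham mean was 9196 ± 2407 RPM (n = 4).

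miR-101b-3p was the rarer member and showed the same arrangement of hearts. In the MI+CIH hearts 1 to 7 it had 2116, 351, 128, 98.4, 412, 459 and 799 RPM, and in the MI hearts 1 to 4 it had 400, 1127, 184 and 421 RPM. In the CIH hearts 1 to 4 it had 1179, 1236, 410 and 1333 RPM, and in the sham hearts 1 to 5 it had 2285, 1288, 1806, 1331 and 1502 RPM. The same 9 infarcted hearts lay lowest, together with CIH 3, and MI+CIH 1 was again as high as a sham heart. MI 2, at 1127 RPM, lay just under the lowest sham heart. Group means were 623 ± 698 RPM in MI+CIH, 533 ± 410 RPM in MI, 1039 ± 425 RPM in CIH and 1642 ± 413 RPM in sham (SD, n = 7, 4, 4 and 5), which is the same order. Without MI+CIH 1 the MI+CIH mean was 375 ± 255 RPM (n = 6), and without MI 2 the MI mean was 335 ± 131 RPM (n = 3).

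**Figure D1:**
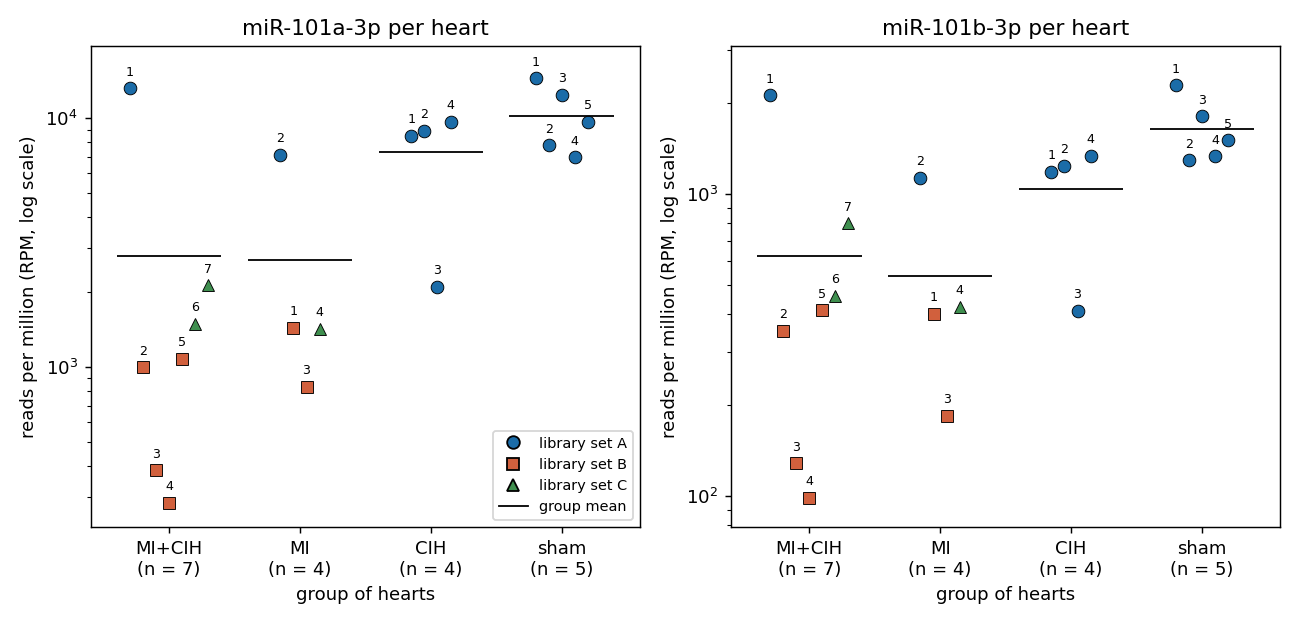
Level of miR-101a-3p (left) and miR-101b-3p (right) in each heart, in RPM on a log scale, by group. Points are single hearts with their replicate number, colour and shape give the library set, and the bar is the arithmetic group mean. Apart from CIH 3, the hearts of set A lie above those of sets B and C in both panels, whatever their group.

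Counting error was small beside these differences. The lowest value of miR-101a-3p, in MI+CIH 4, rested on 566 reads, with a 95% exact Poisson interval of 261 to 309 RPM that covers counting error only. The highest read number was 237643, in MI+CIH 1. miR-101b-3p rested on 196 to 38119 reads. The libraries of MI+CIH 4, MI+CIH 3 and MI 3 had the fewest reads of all (1991323, 2051573 and 3387231) and the lowest miR-101a-3p, and the part of depth in these values was not tested. Among the 360 tested miRNAs, ranked from the highest level, miR-101a-3p held places 54 to 95 in set B, 29 to 37 in set C and 9 to 17 in set A. miR-101b-3p held places 86 to 137 in set B, 54 to 68 in set C and 23 to 46 in set A.

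Over the 20 hearts the highest level of miR-101a-3p was 50.8 times the lowest, and that of miR-101b-3p 23.2 times. Of the 50 tested miRNAs with a mean of at least 1000 RPM, 3 had a wider range than miR-101a-3p and 21 a wider range than miR-101b-3p. In heart tissue, fewer cells that carry a miRNA and less of it per cell cannot be told apart.

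The differences between groups were fitted with limma on log2(RPM + 1), with 1 mean per group over all 20 libraries, and are given with their standard errors as descriptions. The log2 difference of miR-101a-3p in MI+CIH against sham was -2.97 ± 0.72 and that of miR-101b-3p -2.03 ± 0.62. In MI against sham they were -2.40 ± 0.83 and -1.89 ± 0.71. The median over all 360 tested miRNAs lay above 0 in both comparisons, at 1.39 in MI+CIH against sham and 0.94 in MI against sham. Relative to it, miR-101a-3p was at -4.36 and -3.34 and miR-101b-3p at -3.42 and -2.83. CIH against sham gave -0.66 ± 0.83 for miR-101a-3p and -0.76 ± 0.71 for miR-101b-3p, each about the size of its standard error. Without sham 1 and MI 2, miR-101a-3p was at -2.83 ± 0.75 in MI+CIH against sham and -2.91 ± 0.91 in MI against sham, and miR-101b-3p at -1.90 ± 0.65 and -2.22 ± 0.79.

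With the library set as a term, the infarct differences of both members were close to 0. Then miR-101a-3p stood at -0.13 ± 0.63 and miR-101b-3p at 0.00 ± 0.59 in MI+CIH against sham. In MI against sham the values were 0.08 ± 0.63 and -0.11 ± 0.59. In that fit the comparison with sham rests on MI+CIH 1 and MI 2, the 2 infarcted hearts of set A, of which MI 2 goes against its label by the fibroblast marker. The miR-101a-3p mean was 1118 ± 580 RPM in the 9 infarcted hearts of sets B and C (SD), against 13192 and 7117 RPM in the 2 of set A.

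**Figure D2:**
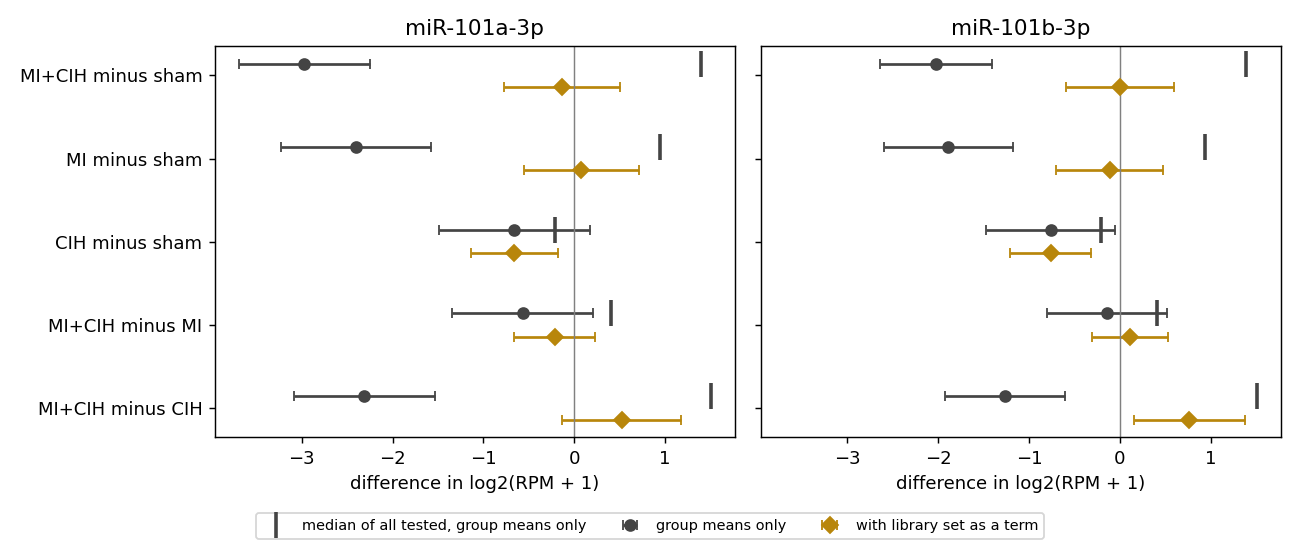
Difference in log2(RPM + 1) of miR-101a-3p (left) and miR-101b-3p (right) in the 5 comparisons, with standard errors. Circles are the fit with group means alone, diamonds the fit with the library set as a term, and vertical marks the median of all 360 tested miRNAs in the fit with group means. The circles of the comparisons of infarcted with uninfarcted hearts lie between -2.97 and -1.27, and the diamonds between -0.13 and 0.76.

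The study's title concerns disordered breathing during sleep as an aggravation after infarction, which MI+CIH against MI addresses. Neither member's level separated these groups. The log2 difference was -0.57 ± 0.78 for miR-101a-3p and -0.14 ± 0.66 for miR-101b-3p with group means alone, and -0.21 ± 0.45 and 0.11 ± 0.42 with the set as a term. Leaving out sham 1 and MI 2 turned both values, to 0.08 ± 0.82 and 0.32 ± 0.71. Set against the MI hearts of its own set, the level of miR-101a-3p in an MI+CIH heart was below all of them in 2 of 7 hearts and above all of them in 3. For miR-101b-3p these counts were 2 and 4. Against CIH hearts, MI+CIH hearts differed by -2.31 ± 0.78 in miR-101a-3p and -1.27 ± 0.66 in miR-101b-3p with group means, and by 0.53 ± 0.65 and 0.76 ± 0.61 with the set. The interaction, the effect of CIH in infarcted hearts minus that in uninfarcted ones, was 0.09 ± 1.14 for miR-101a-3p and 0.62 ± 0.97 for miR-101b-3p.

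CIH 3 stood apart from its group in both members. Its 2100 RPM of miR-101a-3p compare with 8474 to 9642 RPM in the other CIH hearts, whose mean was 4.29 times higher. For miR-101b-3p the mean of the other CIH hearts was 3.05 times higher. The library was not shallow, at 10342577 reads, and CIH 3 was the lowest of the CIH hearts in 141 of the 360 tested miRNAs (39.2%). Its heart muscle sum was the highest of all 20 libraries, 317715 RPM, and its fibroblast sum the lowest, 189 RPM. Their part in its low miR-101 was not tested.

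The balance of the members also differed between hearts. Per 100 reads of miR-101a-3p, miR-101b-3p had 16.0, 35.2, 33.3, 34.6, 38.1, 30.7 and 37.5 reads in the MI+CIH hearts 1 to 7 and 27.9, 15.8, 22.2 and 29.6 reads in the MI hearts 1 to 4. The CIH hearts 1 to 4 had 13.9, 13.9, 19.5 and 13.8, and the sham hearts 1 to 5 had 15.8, 16.5, 14.6, 19.1 and 15.6. No heart of sets B and C, whose lowest value was 22.2, overlapped with set A, whose highest was 19.5. miR-101a-3p had the lowest set B minus set A difference of the 360 tested miRNAs, and held place 8 from the bottom in set C. The mean log ratio to it was thus higher in set B than in set A for every other tested miRNA. The separation cannot be read as particular to miR-101b-3p, and the share of other miRNAs without overlap was not counted. By set, the means were 31.9 ± 5.81 in B (SD, n = 6) and 32.6 ± 4.28 in C (n = 3), against 15.9 ± 1.95 in A (n = 11).

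Among infarcted hearts, miR-101b-3p per 100 reads of miR-101a-3p was higher with CIH in every set, although only 1 MI heart is in set A and 1 in set C. Set B gave 33.3 to 38.1 reads per 100 in MI+CIH, against 22.2 and 27.9 in MI. Set C gave 30.7 and 37.5 in MI+CIH, against 29.6 in MI. In set A the values were 16.0 in MI+CIH 1 and 15.8 in MI 2, with 95% exact binomial intervals of 15.9 to 16.2 and 15.6 to 16.1 that overlap. Those of MI+CIH 6 (29.8 to 31.6) and MI 4 (28.8 to 30.3) overlap as well. miR-101b-3p was 1 of 31 among 359 other tested miRNAs (8.64%) whose ratio to miR-101a-3p exceeded that of all same-set MI hearts in each of the 7 MI+CIH hearts, and 1 of 7 (1.95%) whose ratio did not overlap between MI+CIH and MI in sets B and C together. How reads that fit both members were assigned is not given in the sources used here.

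**Figure D3:**
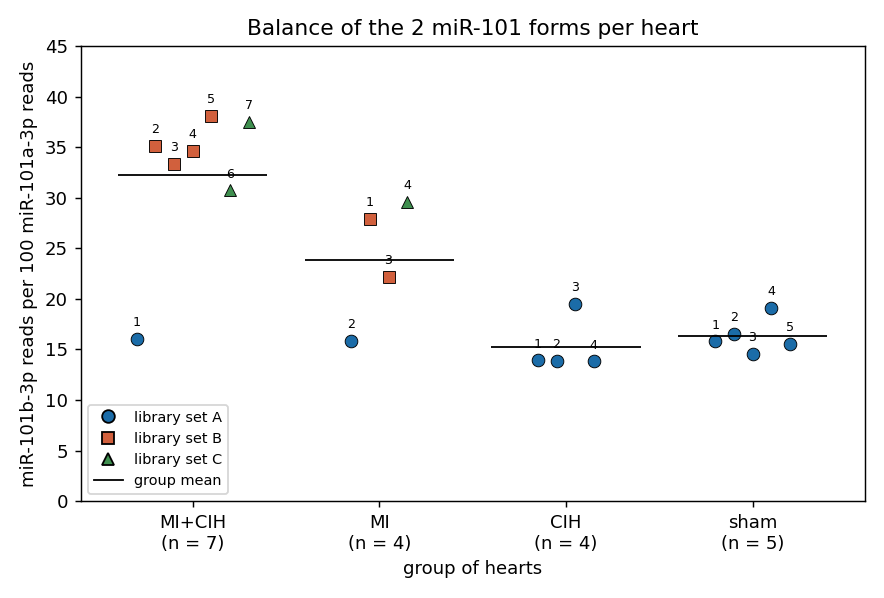
Reads of miR-101b-3p per 100 reads of miR-101a-3p in each heart, by group, on a linear axis from 0. Points are single hearts with their replicate number, colour and shape give the library set, and the bar is the group mean. Hearts of sets B and C lie between 22.2 and 38.1, and hearts of set A between 13.8 and 19.5.

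The other rows of the miR-101 hairpins were almost empty. miR-101a-5p, the opposite arm of the Mir101a hairpin, was at 0 to 0.88 RPM, and miR-101b-5p had 0 reads in all 20 libraries. miR-101c was at 0 to 6.29 RPM, reached 5 RPM in 3 libraries where the filter asked for 4, and was not tested. Per 1000 reads of miR-101a-3p, miR-101c had 0 to 1.27 reads in set B, 1.43 to 2.53 in set C and 0.184 to 0.742 in set A. Its whole sequence is part of miR-101a-3p, so a shortened miR-101a-3p read and a miR-101c read have the same letters.

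Both members were among the miRNAs lowest in set B relative to set A. Set B minus set A in mean log2(RPM + 1) was -3.53 for miR-101a-3p, the lowest value among 360 tested miRNAs, and the median of all was 1.92. miR-101b-3p, with -2.53, held place 3 from the bottom, after miR-19b-3p of the miR-17/92 family (-2.70). In set C against set A the values were -2.33 for miR-101a-3p (place 8) and -1.29 for miR-101b-3p (place 22), with a median of 0.81 over all. Between the infarcted hearts of sets B and C and those of set A, miR-101a-3p was again the lowest of the 360, at -3.35, and miR-101b-3p was at -2.35 (place 6), with a median of 1.36.

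Base composition moved with the set B difference. Of 306 tested miRNAs with a RefSeq sequence, those under 35% G and C had a median of -0.66 in set B minus set A (27 miRNAs), and those of at least 55% a median of 2.89 (72 miRNAs). miR-101a-3p has 33.3% G and C, at or above that of 22 of the 306 including itself, and miR-101b-3p has 42.1%, against a median of 47.8%. Across these miRNAs Pearson's r of the G and C share was 0.49 with set B minus set A and -0.05 with set C minus set A. The part of base composition in the members' differences was not tested.

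**Figure D4:**
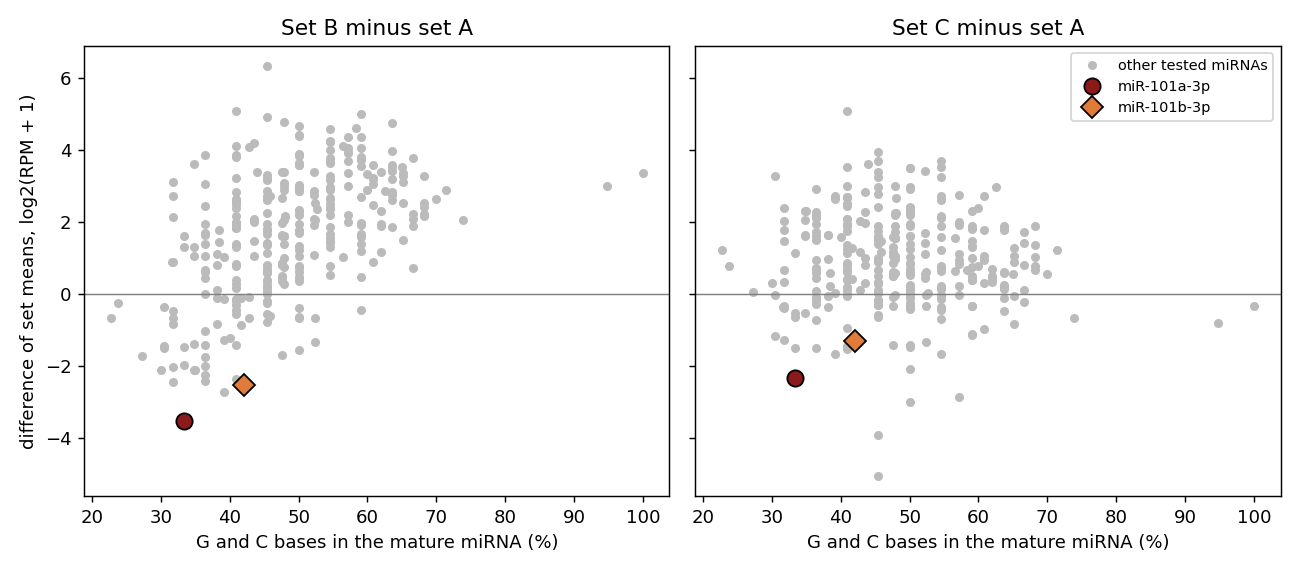
Difference of set means in log2(RPM + 1), set B minus set A (left) and set C minus set A (right), against the share of G and C bases of each mature miRNA in percent. Grey points are the other tested miRNAs with a RefSeq sequence, and the members are marked. miR-101a-3p is the lowest point in set B, at -3.53, and lies at -2.33 in set C.

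Likeness was measured as Pearson's r of the deviations of log2(RPM + 1) from the mean of the library set, over the 20 libraries, which share their depth and composition, so r is a description. The members were alike, with r = 0.96 over all hearts, 0.98 within set A (n = 11) and 0.95 within set B (n = 6). For miR-101a-3p the other neighbours among its 5 nearest were miR-542-3p (r = 0.93), miR-340-5p (0.89), miR-29c-3p (0.88) and miR-322-5p (0.88). For miR-101b-3p they were miR-542-3p (0.96), miR-106b-5p (0.94), miR-322-5p (0.94) and miR-340-5p (0.92). miR-542-3p and miR-322-5p (chrX:53054306-53054327) lie near each other on the minus strand of chromosome X. An 11-base run in common with miR-101a-3p, as in miR-542-3p, was reached by 3 of 306 tested miRNAs (0.980%), the members included.

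CIH 3 was low in each of these neighbours too. They were picked on deviations that include this heart, so this is not a separate observation. miR-542-3p had 14.4 RPM in CIH 3 and 51.7 to 72.5 RPM in the other CIH hearts, and miR-340-5p had 244 and 609 to 691 RPM. Without CIH 3, the r of miR-101a-3p with miR-101b-3p was 0.94 and with miR-542-3p 0.90. The r with miR-29c-3p was 0.80 without it, and miR-29c-3p then held place 17 instead of 4.

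**Figure D5:**
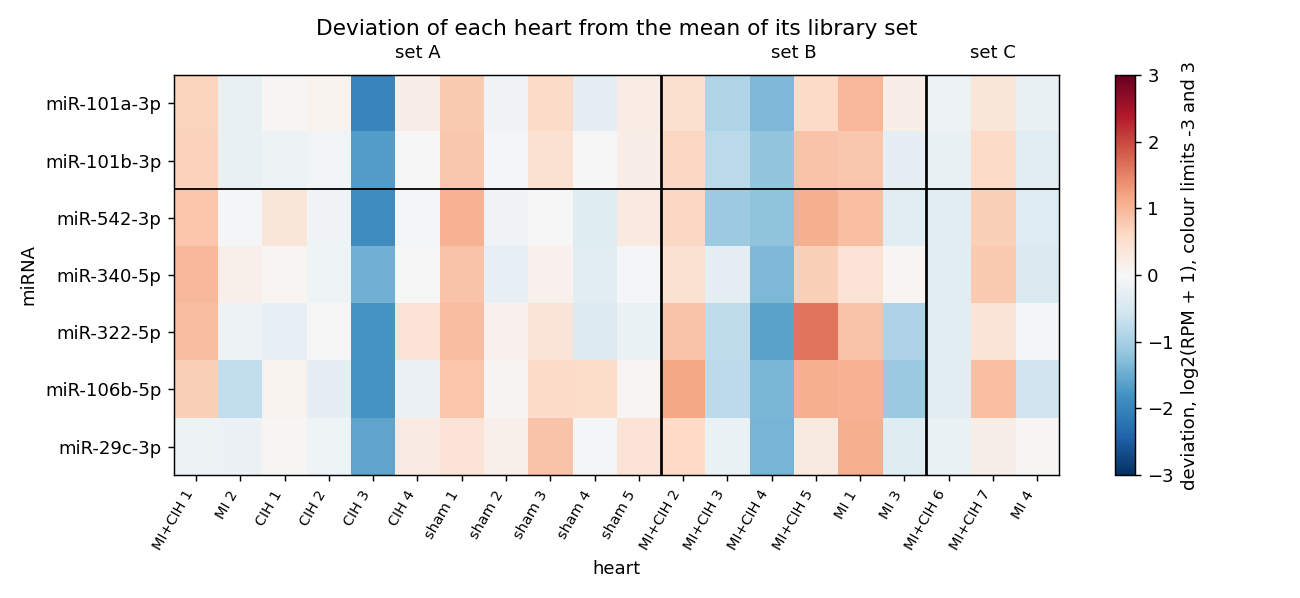
Deviation of each heart from the mean of its library set, in log2(RPM + 1), for miR-101a-3p, miR-101b-3p and the miRNAs most like them. Columns are hearts ordered by library set, red is above and blue below the set mean, and the colour scale runs over -3 to 3. CIH 3 and MI+CIH 4 are low in all 7 rows, of which those other than the members were picked on these same deviations.

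Other miRNAs with roles near those of miR-101 were tested with limma over all 360 miRNAs, with p adjusted by the Benjamini-Hochberg method. Of all tested miRNAs, 52.2% rose and 4.44% fell in MI+CIH against sham. The share called was 0% when the library set was a term. By the edgeR quasi-likelihood test on recovered reads 85 were called (52 higher, 33 lower), and with TMM scaling in limma 114 (51 higher, 63 lower). In MI against sham, CIH against sham and MI+CIH against MI the share was 0% by limma, with 28.1%, 0.278% and 4.72% of miRNAs at an unadjusted p under 0.05. There edgeR called 0 in each, and DESeq2 called 39, 1 and 0. Without MI 2, limma called 113 in MI against sham, and the median log2 difference moved from 0.94 to 1.32. Without MI+CIH 1 it called 31, with the median still at 0.94. All groups share 1 estimate of the spread, and the cause of these counts was not tested. Against CIH, 54.7% were higher in MI+CIH and 2.22% lower.

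Of the relatives by sequence and locus, miR-144-3p fell in MI+CIH against sham (log2 difference -1.67 ± 0.68, limma adjusted p = 0.0415), at 8.10 ± 8.43 RPM in MI+CIH and 18.5 ± 8.22 RPM in sham. It did not pass the test with the set as a term (-0.62 ± 0.69, limma adjusted p = 0.75). miR-144-5p, from the same hairpin, was at -1.36 (limma adjusted p = 0.0613). The neighbouring red cell miRNA miR-451a was at 1.24 (limma adjusted p = 0.0817). The 3 did not move as a group, with a median of -1.36 beside 1.39 over all tested miRNAs. The red cell marker sum (miR-451a, miR-144-3p and miR-486a-5p, none at 0) was 1396 to 15221 RPM in MI+CIH and 568 to 3807 RPM in sham, and its part was not tested.

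Of 5 other miRNAs described as repressing Ezh2 in other cells, 3 passed the filter, and miR-138-5p and miR-124-3p did not. Of the 3, 2 rose and 0 fell in MI+CIH against sham, and the median was 1.12. miR-214-3p, which is also a fibroblast marker, rose by 3.75 ± 0.90 (limma adjusted p = 0.00299), averaging 1059 ± 989 RPM in MI+CIH and 64.5 ± 75.0 RPM in sham. Without sham 1, which had 198 RPM, the sham mean was 31.0 ± 6.83 RPM (SD, n = 4). miR-26b-5p rose by 1.12 ± 0.43 (limma adjusted p = 0.0323), and lay at -0.50 after TMM scaling. miR-26a-5p was at 0.85 (limma adjusted p = 0.0539).

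Of 6 miRNAs described as limiting fibrosis after infarction, 2 rose, 1 fell and 3 did not pass, with a median of 0.77. miR-29c-3p, a repressor of collagen genes, fell (-1.82 ± 0.60, limma adjusted p = 0.0172), at 8.39 ± 7.09 RPM in MI+CIH and 23.5 ± 5.91 RPM in sham. miR-133a-3p, a muscle miRNA, was at 1.60 (limma adjusted p = 0.015) and miR-24-3p at 1.07 (limma adjusted p = 0.0254). Both were below 0 after TMM scaling (-0.02 and -0.55). Of 3 miRNAs described as promoting fibrosis, 2 rose and the median was 1.47. miR-34a-5p was at 1.47 (limma adjusted p = 0.0196), and at -0.10 after TMM scaling. miR-155-5p, a macrophage miRNA, was at 2.72 (limma adjusted p = 0.00341), while miR-21a-5p was at 0.12 (limma adjusted p = 0.863). In the fit that includes the library set, which was clustered from values that include these miRNAs, 0 members of these lists passed. In MI against sham, CIH against sham and MI+CIH against MI 0 passed without the set. Against CIH hearts, MI+CIH hearts had 2 of 3 of the Ezh2 list, 3 of 6 of the antifibrotic list and 2 of 3 of the profibrotic list higher by limma without the set, and 0 lower.

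Sums of the markers of other cells differed between the library sets, and not in the same way in sets B and C. Abundant markers weigh most in each sum, and the markers of a list did not all move together. Set B minus set A in mean log2(RPM + 1) was 3.79 for miR-486a-5p and 0.60 for miR-451a, but -2.12 for miR-144-3p, beside a median of 1.92 over all tested miRNAs. Of the leukocyte markers, miR-150-5p, miR-155-5p and miR-223-3p were at 3.56, 3.62 and 1.95. miR-142a-3p and miR-142a-5p were at -2.11 and -1.48. In set C minus set A, miR-142a-3p, miR-155-5p and miR-223-3p were at 2.30, 2.04 and 1.88, beside a median of 0.81 over all. There miR-150-5p and miR-142a-5p were at 0.03 and -0.65. The red cell sum was 5072 to 15221 RPM in set B, 2393 to 3047 RPM in set C and 568 to 3807 RPM in set A, so set B alone did not overlap with set A. The fibroblast sum was 1264 to 7116 RPM in MI+CIH, 378 to 4056 RPM in MI, 189 to 433 RPM in CIH and 398 to 1905 RPM in sham. By set it averaged 3496 ± 1853 RPM in B and 5403 ± 1563 RPM in C, against 647 ± 589 RPM in A. The leukocyte sum (5 markers, of which miR-142a-3p was at 0 in 1 library) was 1209 to 1930 RPM in set B, 325 to 640 RPM in set C and 207 to 652 RPM in set A, again apart in set B alone. The heart muscle sum (5 markers, none at 0) was 88429 to 184647 RPM in set B, 241475 to 295423 RPM in set C and 183397 to 317715 RPM in set A. The endothelial sum (2 markers, none at 0) was 3162 to 7513 RPM in set B, 24768 to 50262 RPM in set C and 5976 to 10970 RPM in set A. The smooth muscle sum (2 markers, none at 0) was 130564 to 272741 RPM in set B, 25883 to 41639 RPM in set C and 134524 to 261394 RPM in set A. In set C minus set A, the endothelial markers miR-126a-3p and miR-126a-5p were at 2.42 and -1.67. The smooth muscle markers miR-143-3p and miR-145a-5p were at -2.73 and 1.17. In set B minus set A, miR-133a-3p (2.49) and miR-199b-5p (-1.49) went against the rest of the heart muscle and fibroblast lists. MI+CIH 1 and sham 1 had fibroblast sums of 1753 and 1905 RPM and the highest miR-101a-3p levels, 13192 and 14451 RPM. Sham 3, also of set A, had 12384 RPM of miR-101a-3p with a fibroblast sum of 430 RPM. MI+CIH 7 of set C and MI+CIH 2 of set B had the highest fibroblast sums, 7116 and 5719 RPM, with 2131 and 999 RPM of miR-101a-3p. No heart of sets B and C had more than 2131 RPM of miR-101a-3p, whatever its fibroblast sum. The part of cell composition in the miR-101 levels was not tested.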

How the data were processed

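Small RNA from 20 hearts was sequenced. The labels' protocols name flash freezing, Trizol extraction and NEBNext small RNA libraries. mm10, Bowtie and DESeq 1.8.3 appear in the submitters' processing notes, without their roles. The deposited table, headed TPM, holds RPM values that the authors made by dividing the reads of a miRNA by all miRNA reads of the library. This is read from the values, since columns add up to 1000000 and 100% of entries were a whole number of reads (tolerance 0.05 reads), which allowed the reads to be recovered. The table held 0 columns of other samples.

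The 360 rows that reached 5 RPM in 4 or more libraries were fitted with limma 3.58.1 in R 4.3.3 on log2(RPM + 1), with a trend and a two-sided test (16 residual degrees of freedom, 14 with the library set). p was Benjamini-Hochberg adjusted over the 360, with a threshold of 0.05. Fold changes on this scale understate changes of low miRNAs. The members and lists were chosen with earlier results of these data known. Named miRNAs are the members, the other miR-101 rows, the fixed lists and the 5 tested miRNAs most like each member. miR-503-5p is named from sequence, miR-19b-3p from rank, and miR-486a-5p and the other cell markers as markers. Sets came from average-linkage clustering on correlation distance, with the tree cut to give 3 sets. Alternatives were pseudocounts of 0.5 and 5, no filter, a mean of at least 50 RPM, TMM and median-of-ratios scaling, the set term, removal of 12 rows that repeat another within 5%, leaving out libraries, a replicate block, and edgeR 4.0.16 and DESeq2 1.42.0 on recovered reads. CIH against sham in set A alone, and likeness without CIH 3, were added after seeing the data.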

Additional observations from a re-analysis of the deposited data

Results flagged for a closer look

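In groups of 4 to 10 hearts, a heart was picked out when its gap to the nearest other heart was a larger part of the group's range than Dixon's 95% critical value. This was so for 8 of 52 groups of values. The rate of about 1 in 20 by chance holds for independent groups of normally distributed values. Here the MI and MI+CIH groups mix library sets and the ratio is made from both members, so 8 of 52 cannot be set against that rate. For miR-101a-3p, miR-101b-3p and their ratio, which hold 7 of the 8, the rule serves as a description of single hearts and not as a test, since these miRNAs were chosen on the same values.

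miR-101a-3p was picked out in MI+CIH 1 (13192 RPM, against 284 to 2131 RPM in the other MI+CIH hearts), in MI 2 (7117 RPM, against 831 to 1434 RPM in the other MI hearts) and in CIH 3 (2100 RPM, against 8474 to 9642 RPM in the other CIH hearts). MI+CIH 1 and MI 2 are the infarcted hearts of set A. miR-101b-3p was picked out in MI+CIH 1 (2116 RPM) and CIH 3 (410 RPM). The miR-101b-3p reads per 100 of miR-101a-3p were picked out in MI+CIH 1 (16.0, low) and CIH 3 (19.5, high). In CIH 3 the gap was 0.845 of the range for miR-101a-3p and 0.833 for miR-101b-3p, just past the critical value. CIH 3 was lowest past that value in 8 of 360 tested miRNAs (2.22%) and highest past it in 9. Among the other miRNAs named, miR-214-3p was picked out in sham 1 (198 RPM), the sham heart with the highest fibroblast marker sum.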

How the results depend on the processing

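The log2 differences of miR-101a-3p and miR-101b-3p in MI+CIH against sham, MI against sham and MI+CIH against CIH stayed negative under every alternative run except the library set as a term. With the set, miR-101a-3p was at -0.133, 0.0802 and 0.525 in these comparisons and miR-101b-3p at 0.00147, -0.111 and 0.765. TMM scaling gave -4.59 and -3.64 for miR-101a-3p and miR-101b-3p in MI+CIH against sham and -4.18 and -3.13 in MI+CIH against CIH, and -3.02 for miR-101b-3p in MI against sham. Median-of-ratios scaling gave -4.37 and -3.42 in MI+CIH against sham and -3.99 and -2.94 in MI+CIH against CIH. Leaving out 1 library at a time gave miR-101a-3p -3.54 to -2.61 in MI+CIH against sham, -3.05 to -2.01 in MI against sham and -1.13 to 0.08 in MI+CIH against MI. In CIH against sham it gave -0.87 to -0.13, with -0.13 reached without CIH 3.

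The number of miRNAs called in MI+CIH against sham, 204, was 135 with no filter, 92 with a mean of at least 50 RPM, 114 with TMM, 112 with median-of-ratios, 85 with edgeR and 0 with the set. In MI+CIH against CIH, 205 became 94 with a mean of at least 50 RPM, 90 with TMM, 97 with median-of-ratios, 75 with edgeR, 133 with DESeq2 and 0 with the set. In MI against sham, 0 became 14 with a mean of at least 50 RPM, 39 with DESeq2, 114 without sham 1 and MI 2, and 0 to 113 without 1 library. DESeq2 called 1 in CIH against sham. In MI+CIH against MI the set term called 2, and leaving out 1 library 0 to 3. The cause of these moves was not tested.

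Some list members changed sign in MI+CIH against sham. miR-451a was at -0.38 with TMM, -0.16 with median-of-ratios, -0.63 with edgeR and -0.45 with DESeq2. miR-26b-5p was at -0.50, -0.28, -0.43 and -0.24 under these and at -0.41 with the set. miR-24-3p was at -0.55, -0.33, -0.53 and -0.32. miR-133a-3p was at -0.0198 with TMM and -0.131 with the set, miR-34a-5p at -0.10 with TMM and miR-155-5p at -0.0454 with the set.

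Whether the replicate numbers pair the hearts could not be decided, since deviations from group means also carry the library set. MI+CIH 3 and MI 3, both of set B, gave 0.87. MI+CIH 4 of set B and MI 4 of set C gave -0.71. Of 25 pairs of same-numbered hearts, 10 had a correlation of deviations over 0.1, and the range was -0.71 to 0.87. With the replicate block, 218 miRNAs were called in MI+CIH against sham and 211 against CIH, and miR-101a-3p was at -3.17 and -2.51.

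Precision is limited by the number of hearts, by 2 infarcted hearts in set A and 0 sham or CIH hearts in sets B and C. Depth limits the rare rows, of which miR-101a-5p and miR-101c lay near or below 3 reads in several libraries.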
